A study of Mus musculus with 4 samples.

Results

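The genes described here encode the TGF-beta ligands (Tgfb1, Tgfb2 and Tgfb3), the latent TGF-beta binding proteins (Ltbp1, Ltbp2 and Ltbp3), the signalling receptors (Tgfbr1 and Tgfbr2) and the co-receptors betaglycan (Tgfbr3) and endoglin (Eng). They were taken as every probe on the array whose accession belongs to one of these symbols, which gave 14 probes of 10 genes among 41174 probes, and 9 of the 10 genes were among the 21464 genes tested. Prostate basal cells of adult FVB mice had been sorted by FACS and cultured as prostate spheres, balls of cells that grow from epithelial progenitors, in medium with DAPT at 5 µM (2 arrays) or in medium with the vehicle DMSO (2 arrays), renewed every 24 h in both groups. DAPT inhibits γ-secretase, the protease complex that frees the intracellular part of Notch, and the design asks how Notch signalling governs proliferation and differentiation of basal cells. Each array carried sphere RNA in the red channel and universal reference RNA of mouse in the green channel, with 2.5 µg of total RNA used for the arrays. All 4 arrays lay on 1 slide, read in 1 scan. Whether arrays of 1 group stem from different cultures or mice is not stated in the sources used here. The p-values set each change against the scatter between arrays, pooled in part over all genes, and this scatter may be technical.

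TGF-beta ligands are made as precursors that furin cleaves, and the cut propeptide stays wrapped around the ligand and keeps it inactive. Latent TGF-beta binding proteins tie this inactive complex to fibrillin and fibronectin in the matrix, from where integrins pull the ligand free. The free ligand binds the type II receptor Tgfbr2, which switches on the type I receptor Tgfbr1, and Smad2 and Smad3 then carry the signal to the nucleus with Smad4. In prostate epithelium TGF-beta is known for restraining proliferation.

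Promoter windows from RefSeq (GRCm38.p6), each with 250 bases before and 50 bases after a transcription start, were at hand for 8 of the 10 genes, in 10 windows of 300 bases. Those of Tgfb1 and Ltbp2, the members called lower, and of Ltbp3, with the only match to the Notch partner RBPJ among the members, are printed 5′ to 3′ on the gene's strand, with capitals on every match to a searched motif. The Tgfb1 window is chr7:25686752-25687051 on the + strand, that of Ltbp2 is chr12:84876442-84876741 on the − strand and that of Ltbp3 is chr19:5740650-5740949 on the + strand.
Tgfb1: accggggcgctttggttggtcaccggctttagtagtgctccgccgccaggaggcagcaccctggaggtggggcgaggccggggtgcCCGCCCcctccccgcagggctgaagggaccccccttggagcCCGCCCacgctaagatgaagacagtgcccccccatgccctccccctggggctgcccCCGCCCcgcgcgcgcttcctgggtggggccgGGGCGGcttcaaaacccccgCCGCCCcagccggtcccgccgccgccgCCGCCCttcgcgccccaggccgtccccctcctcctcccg
Ltbp2: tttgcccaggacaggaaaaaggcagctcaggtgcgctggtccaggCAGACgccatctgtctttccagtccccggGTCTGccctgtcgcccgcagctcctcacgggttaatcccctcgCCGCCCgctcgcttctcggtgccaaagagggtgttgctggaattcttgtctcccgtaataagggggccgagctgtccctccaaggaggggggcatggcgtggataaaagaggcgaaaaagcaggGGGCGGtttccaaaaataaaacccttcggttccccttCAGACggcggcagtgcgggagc
Ltbp3: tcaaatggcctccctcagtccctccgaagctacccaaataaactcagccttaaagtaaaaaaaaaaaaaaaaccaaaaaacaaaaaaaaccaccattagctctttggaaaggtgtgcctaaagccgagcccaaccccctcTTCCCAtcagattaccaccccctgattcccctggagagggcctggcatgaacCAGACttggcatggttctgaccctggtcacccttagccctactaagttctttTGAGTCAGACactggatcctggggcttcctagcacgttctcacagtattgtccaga

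The motifs were searched on both strands, and matches of different motifs could share letters, as the AP-1 and SMAD matches of Ltbp3 do. The RBPJ letters TGGGAA stood in 1 of the 10 member windows, against 25.6% of 32851 windows of the same length, and in Ltbp3 they began 110 bases before the start, on the other strand (TTCCCA as printed). The SMAD letters CAGAC stood in 8 of 10 member windows, against 49.6% of all windows. The Tgfb1 window is GC-rich (77%), held 6 matches to the GC box GGGCGG and none to the other motifs, while the Ltbp2 window held 3 SMAD and 2 GC box matches. GC boxes stood in 3 of 10 member windows against 35.7% of all, and the AP-1 letters TGANTCA in 1 of 10 against 7.81%. A match describes these letters and says nothing of binding.

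Levels are given below as log2 ratios of sphere over reference RNA after normexp background correction and loess normalization, and each change as DAPT over vehicle on the log2 scale ± SE, fitted with limma (2 arrays per group). A gene counts as called when its Benjamini-Hochberg adjusted p over all 21464 genes was below 0.05. Of the 9 tested members 2 were called lower, Tgfb1 and Ltbp2, and 0 higher, where 3.93% of all genes were called lower and 2.9% higher. The sign of the change was negative for 8 of the 9, against 56.4% of all genes. It was negative for 5 in the red channel alone and for 6 with median centring of the arrays. Median centring also moved the median change of all genes, from -0.059 to 0.11. With loess normalization both DAPT arrays lay below both vehicle arrays in 7 of the 9, as they did in 31.7% of all genes. The median change was -0.62 over the 9 members and -0.059 over all genes. For the red channel these medians were -0.26 and -0.038, and for the green reference channel 0.58 and 0.034. Neither Tgfb1 nor Ltbp2 passed in the red channel alone, where 1 of all genes did, or with 13 spots of DAPT 2 kept whose local background was over 5 times the array's median (called debris spots here), where 66 genes were lower and 3 higher.

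**Figure D1:**
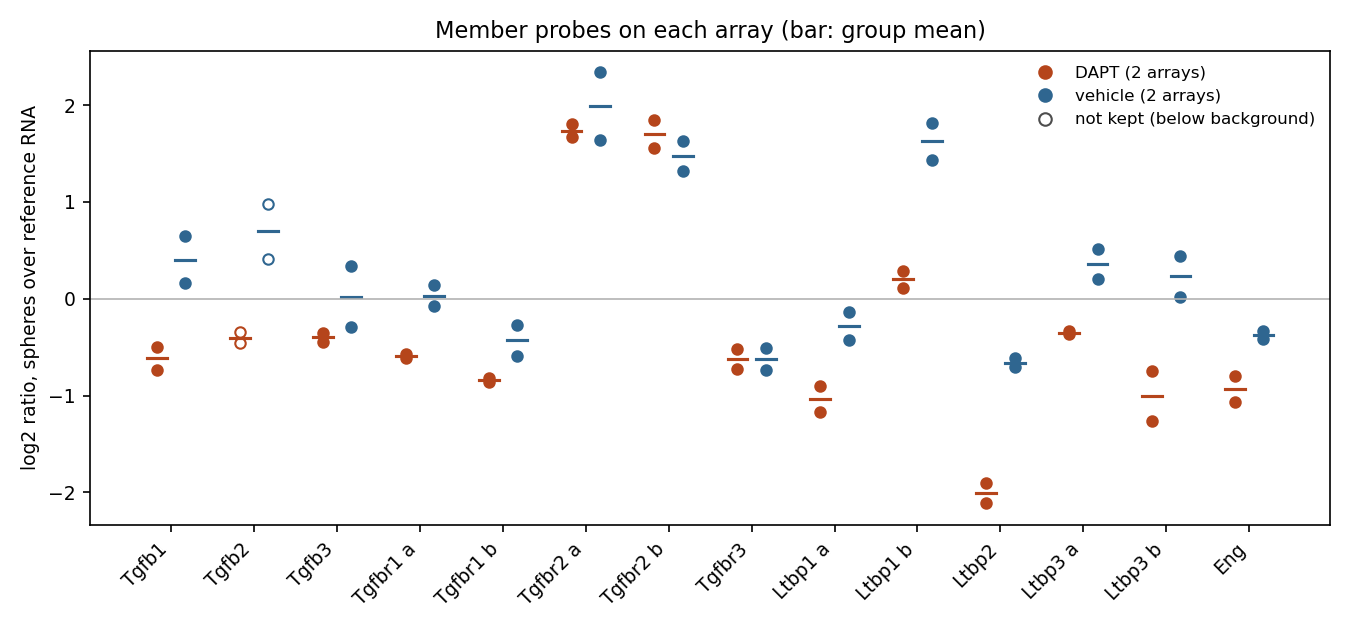
Log2 ratio of sphere over reference RNA (vertical axis) of each of the 14 member probes on the DAPT arrays (orange, left) and the vehicle arrays (blue, right), with a bar at each group mean. The letters a and b mark the brighter and the dimmer probe of a gene with 2 probes, and hollow points belong to Tgfb2, which was not well above background. The DAPT points lie under the vehicle points most clearly for Ltbp2 and for the dimmer probes of Ltbp1 and Ltbp3, and the groups overlap for Tgfbr2 and Tgfbr3.

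Among the ligands, Tgfb1, the most widely expressed TGF-beta, had log2 ratios of -0.50 and -0.73 in DAPT spheres, against 0.64 and 0.17 in vehicle spheres. Both DAPT arrays lay below both vehicle arrays, and Tgfb1 was called lower at -1.02 ± 0.22 (2.03-fold, 95% confidence interval -1.50 to -0.54, limma adjusted p = 0.0165). The change was smaller, and not past the threshold, from the scanner's processed signals (-0.59) and with median centring (-0.60), and without the vehicle 1 array it was -0.78 (limma adjusted p = 0.0540). The normalized log2 red signal, which holds the sphere RNA, was 10.33 and 10.46 in DAPT spheres and 10.54 and 10.77 in vehicle spheres, a difference of -0.26. The log2 green signal, which holds the same reference RNA on every array, was 10.82 and 11.19 on the DAPT arrays and 9.89 and 10.60 on the vehicle arrays, a difference of 0.76. In these normalized signals the larger part of the fall in the Tgfb1 ratio lies in the reference channel. This split, like those given below, depends on how brightness was matched between arrays.

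The Tgfb1 probe was printed as 10 spots on every array, which shows how far spots of 1 probe scatter. Spot ratios had a lowest, median and highest value of -1.01, -0.53 and 0.13 on DAPT 1 and of -1.06, -0.80 and -0.16 on DAPT 2, against 0.38, 0.64 and 0.94 on vehicle 1 and -0.25, 0.069 and 0.77 on vehicle 2. Taken at each of the 10 positions, both DAPT arrays lay below both vehicle arrays, with differences between group means from -1.17 to -0.74. These spots share the RNA and the hybridisation of their array and are no further replicates. The median unnormalized red intensity of the spots was 1131 on DAPT 1 and 984 on DAPT 2, against 731 on vehicle 1 and 658 on vehicle 2. The median green intensity was 4097 and 3956 on the DAPT arrays, against 1391 and 2358 on the vehicle arrays. Before normalization both channels were thus brighter on the DAPT arrays, green more so than red. Feature Extraction marked the Tgfb1 spots as non-uniform or outlying at 10 of 10 positions on both DAPT arrays, at 0 on vehicle 1 and at 7 on vehicle 2. The part of these marks in the result was not tested.

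**Figure D2:**
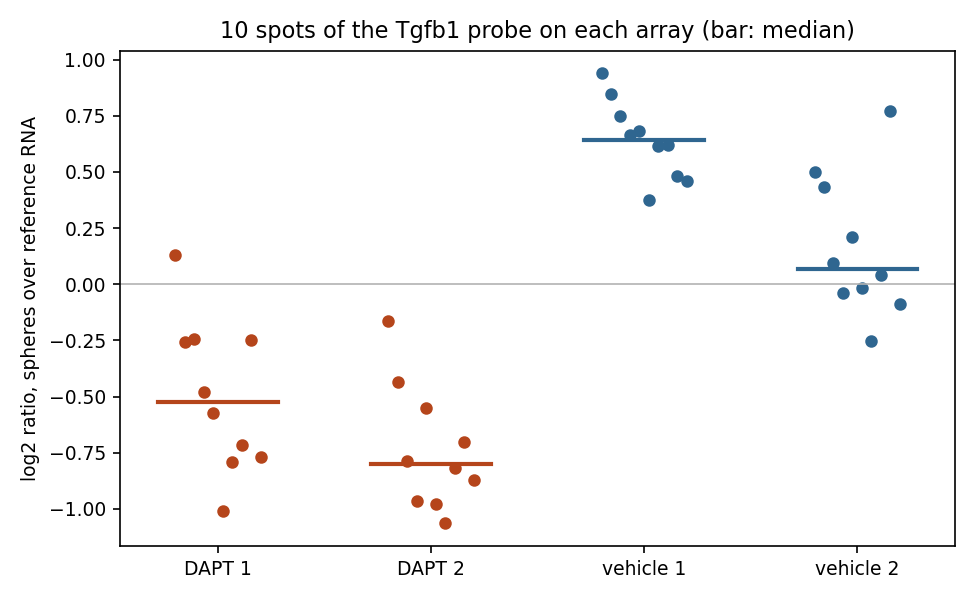
Log2 ratio of sphere over reference RNA (vertical axis) of the 10 Tgfb1 spots on each array, with a bar at the median of the array. Medians are -0.53 and -0.80 on the DAPT arrays and 0.64 and 0.069 on the vehicle arrays, and the spots of DAPT 1 and of vehicle 2 each span more than 1 unit.

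Tgfb2 lay close to background. Its red intensity before background correction was 93 and 71 on the DAPT arrays, against 149 and 76 on the vehicle arrays, and it was well above background in red on 0 of 2 DAPT arrays and on 1 of 2 vehicle arrays, so it was not tested with the other genes. The normalized log2 red signal was 6.94 and 6.55 in DAPT spheres, against 8.13 and 6.78 in vehicle spheres. Vehicle 2 lay below DAPT 1, so the groups overlapped in red and no fold is given. The ratios were -0.34 and -0.46 in DAPT spheres, against 0.98 and 0.41 in vehicle spheres, and rest on red signals that were well above background on vehicle 1 alone.

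Tgfb3, a ligand known from palate and lung development, was well above background on all 4 arrays. Its log2 ratios were -0.45 and -0.35 in DAPT spheres, against -0.30 and 0.33 in vehicle spheres, so the lower vehicle array lay close to the DAPT arrays. The change of -0.42 ± 0.23 (interval -0.92 to 0.08, limma adjusted p = 0.304) did not pass the threshold and was positive with median centring (0.037) and in the red channel alone (0.090). Single vehicle arrays moved it, to -0.73 without vehicle 1 and -0.10 without vehicle 2. The red signal was 12.28 and 12.60 in DAPT spheres, against 11.82 and 12.88 in vehicle spheres, so the vehicle arrays stood on either side of the DAPT arrays. As with Tgfb1, the green signal was higher on the DAPT arrays, by 0.51.

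The largest changes among tested member probes were those of latent TGF-beta binding proteins, at the Ltbp2 probe and the dimmer probes of Ltbp1 and Ltbp3. Ltbp2, a fibrillin-binding matrix protein that unlike its relatives does not bind latent TGF-beta itself, had log2 ratios of -2.11 and -1.91 in DAPT spheres, against -0.61 and -0.71 in vehicle spheres. The groups stood far apart relative to their spread, and Ltbp2 was called lower at -1.35 ± 0.20 (2.55-fold, interval -1.78 to -0.93, limma adjusted p = 0.00195). Leaving out any 1 array kept the change between -1.46 and -1.25 and its adjusted p below the threshold. The red signal was 8.92 and 9.32 in DAPT spheres, against 10.26 and 9.25 in vehicle spheres, so the groups overlapped in the sphere channel and their means differed by -0.64. Green signals of Ltbp2 were 11.04 and 11.22 on the DAPT arrays, against 10.87 and 9.96 on the vehicle arrays, a difference of 0.71. The vehicle 2 array was low in both channels, which the ratio cancels. From the scanner's processed signals the change was -0.77 (limma adjusted p = 0.189).

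Ltbp1, which binds the latent complex covalently, was read by 2 probes. The brighter probe, which stood for the gene, had log2 ratios of -1.17 and -0.90 in DAPT spheres, against -0.14 and -0.43 in vehicle spheres. Its change of -0.75 ± 0.21 (interval -1.20 to -0.30, limma adjusted p = 0.0502) lay just outside the threshold. The dimmer Ltbp1 probe had ratios of 0.11 and 0.28 in DAPT spheres, against 1.44 and 1.82 in vehicle spheres. With every probe tested on its own it was lower by -1.43 ± 0.21 (interval -1.88 to -0.97, limma adjusted p = 0.00239), the largest change of any member probe. In the red channel too both Ltbp1 probes had the DAPT arrays below the vehicle arrays. The brighter probe had a red mean of 10.40 ± 0.43 in DAPT spheres and 11.14 ± 0.42 in vehicle spheres (SD, n = 2 each), and the dimmer stood at 10.06 and 10.11 in DAPT spheres, against 11.09 and 11.23 in vehicle spheres. The green signal differed by 0.011 for the brighter and by 0.35 for the dimmer Ltbp1 probe, so most of the Ltbp1 change lies in the sphere channel, unlike that of Tgfb1.

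Ltbp3, which also binds and helps to secrete latent TGF-beta, had a brighter probe at -0.37 and -0.34 in DAPT spheres, against 0.20 and 0.52 in vehicle spheres. The change was -0.71 ± 0.20 (interval -1.15 to -0.27, limma adjusted p = 0.0544), outside the threshold. The dimmer Ltbp3 probe stood at -1.26 and -0.75 in DAPT spheres, against 0.022 and 0.45 in vehicle spheres, and as a probe of its own was lower by -1.24 ± 0.23 (limma adjusted p = 0.00957). In both Ltbp3 probes the groups were apart in the ratio. The brighter probe differed by 0.062 in red and 0.77 in green, and the dimmer by -0.41 in red and 0.83 in green, so the fall of the ratio again lies mostly in the reference channel, and in red alone the brighter probe has the opposite sign.

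Among the signalling receptors, Tgfbr1, the type I receptor kinase, had log2 ratios of -0.62 and -0.57 in DAPT spheres, against 0.14 and -0.080 in vehicle spheres at its brighter probe. The groups did not overlap, but the change of -0.62 ± 0.20 (interval -1.05 to -0.20, limma adjusted p = 0.0776) did not pass the threshold. The DAPT arrays were close in ratio and far apart in red, at 10.33 and 9.08, against 10.16 and 10.65 in vehicle spheres, since red and green moved together on these arrays. The dimmer Tgfbr1 probe had ratios of -0.82 and -0.86 in DAPT spheres, against -0.27 and -0.59 in vehicle spheres, a change of -0.41 ± 0.20 (limma adjusted p = 0.244).

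Tgfbr2, the ligand-binding type II receptor, stood above the reference RNA on every array. Its brighter probe had 1.80 and 1.67 in DAPT spheres, against 1.64 and 2.34 in vehicle spheres, and the dimmer probe 1.56 and 1.85 in DAPT spheres, against 1.32 and 1.63 in vehicle spheres. The groups overlapped at both probes, and the probes had opposite signs, at -0.25 ± 0.24 (interval -0.77 to 0.27, limma adjusted p = 0.571) and 0.23 ± 0.21 (interval -0.23 to 0.68, limma adjusted p = 0.552). The brighter probe was positive with median centring (0.20), in the red channel alone (0.53) and without the vehicle 2 array (0.10). In red the brighter probe had 13.15 and 13.15 in DAPT spheres, against 12.37 and 12.87 in vehicle spheres, and the dimmer probe 11.08 and 10.86 in DAPT spheres, against 11.21 and 11.41 in vehicle spheres. The groups were apart in red at both probes but in opposite directions, so no direction can be given for Tgfbr2.

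Tgfbr3, betaglycan, which presents ligand to Tgfbr2, had log2 ratios of -0.73 and -0.52 in DAPT spheres, against -0.74 and -0.51 in vehicle spheres. The groups overlapped almost exactly, and the change was 0.0014 ± 0.20 (interval -0.44 to 0.44, limma adjusted p = 0.997). Beneath this, both channels were brighter on the DAPT arrays by 0.58, with red signals of 10.06 and 10.38 in DAPT spheres, against 9.74 and 9.54 in vehicle spheres. The red groups of Tgfbr3 did not overlap, and the ratio removed that difference. Eng, endoglin, a co-receptor best known from endothelial cells, had ratios of -0.80 and -1.07 in DAPT spheres, against -0.42 and -0.33 in vehicle spheres, without overlap. Its change of -0.56 ± 0.20 (interval -0.99 to -0.12, limma adjusted p = 0.117) did not pass the threshold. The Eng probe was dim, with red intensities of 153 and 141 on the DAPT arrays against 142 and 116 on the vehicle arrays, and most of its difference lay in the normalized signals of the red channel (-0.49 in red, 0.068 in green). Of 8 endothelial marker genes 4 were not well above background (Cdh5, Kdr, Tek and Tie1), and 0 of the other 4 were called. These 4 were Pecam1 at 0.23, Vwf at -0.43, Emcn at 0.0019 and Cldn5 at -0.0051. The summed red signal of the tested endothelial markers was 1690 and 1889 in DAPT spheres, against 1581 and 2460 in vehicle spheres, and its part in the Eng value was not tested.

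Over the 13 member probes well above background, red was lower on the DAPT arrays for 9 and green higher for 11. Of the 11 probes with a negative change of the ratio, 10 had a higher green signal and 7 had the larger part of their change in green. For comparison, green was higher in 54.3% of all probes kept and red lower in 51.1%, whatever the sign of their ratio change. Of the 843 genes called lower, 642 had a higher green signal and 28.5% had the larger part of their change in green. The RNA in the green channel was the same reference on each array, and the cause of its differences was not tested. Red changes of the members ran from -1.08 to 0.58, green changes from -0.57 to 0.83 and ratio changes from -1.43 to 0.23. Across all genes the median SD within a group was 0.18 for the ratio, 0.28 for red and 0.25 for green. With every probe tested on its own, 4 member probes were called lower and 0 higher, against 3.73% lower and 3.17% higher of 27284 probes, and in 10 of the 13 both DAPT arrays lay below both vehicle arrays, against 30.6%.

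**Figure D3:**
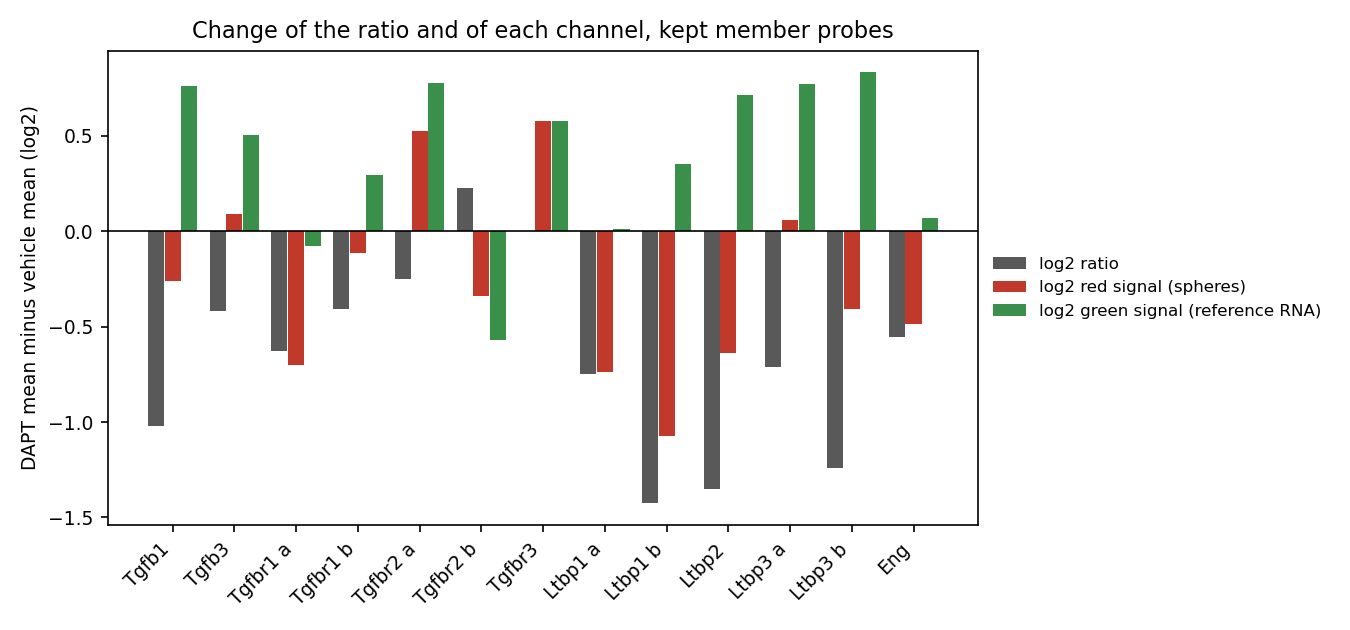
Difference between the DAPT mean and the vehicle mean (vertical axis, log2) for the ratio (grey), the normalized red sphere signal (red) and the normalized green reference signal (green) of the 13 member probes above background. For Tgfb1, Ltbp2 and both Ltbp3 probes the green bar is longer than the red one, whereas for both Ltbp1 probes and Eng the red bar makes up most of the grey one.

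Spots were marked as non-uniform or outlying far more often on the DAPT arrays, at 49.6% and 50.9% of all spots against 11.6% and 29.2% on the vehicle arrays. Of the 26 values of the 13 member probes in each group, 23 were marked on DAPT arrays and 13 on vehicle arrays. With marked spots left out, 1 of the 9 members, Eng, could still be tested. The median red intensity over all probes was 171 and 145 on the DAPT arrays and 119 and 109 on the vehicle arrays, and the array positions on the slide differed between groups, so position and treatment cannot be told apart. No member spot was saturated.

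**Figure D4:**
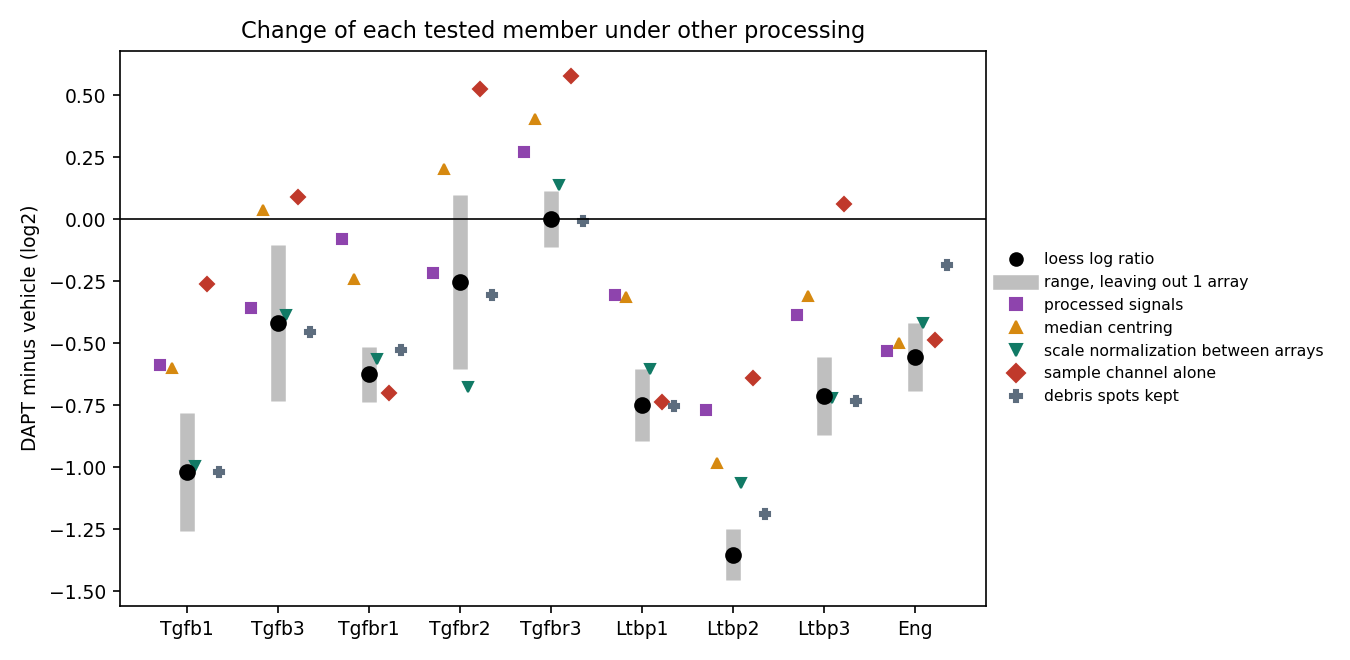
Change of the 9 tested members (vertical axis, log2, DAPT minus vehicle) from the loess log ratio (black), over the fits that leave out 1 array (grey bar) and under 5 other treatments of the signals (coloured symbols). Tgfb1, Tgfbr1, Ltbp1, Ltbp2 and Eng lie below 0 in every case shown, and Tgfb3, Tgfbr2, Tgfbr3 and Ltbp3 have symbols on both sides of 0.

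Other genes of the pathway were taken from 3 lists of 51 genes, 47 of which were tested, with 13 called lower and 3 higher. Beside this and the counts of each list below, 3.93% of all genes were called lower and 2.9% higher. In the red channel alone 0 of the 47 passed, and Furin, Thbs1, Itgb1, Pmepa1 and Vasn each lost the call when some single array was left out. Of 17 genes for storage and activation of the latent complex, 15 were tested, 5 were called lower and 2 higher, with a median change of -0.37. Fbn1, the fibrillin to which binding proteins attach, had ratios of -1.53 and -1.46 in DAPT spheres, against 0.30 and 0.27 in vehicle spheres, and fell by 1.78 ± 0.19 (limma adjusted p = 0.000281). Dcn, decorin, a proteoglycan that binds TGF-beta, fell by 1.85 ± 0.23 (limma adjusted p = 0.000613). Both changes lay in the red channel, at -1.80 for Fbn1 and -1.86 for Dcn. Emilin1, which binds the Tgfb1 precursor before furin cleaves it, fell by 1.07 ± 0.20 and Thbs1, thrombospondin, an activator of the latent complex, fell by 0.89 ± 0.23. Emilin1 differed by -0.53 in red and 0.54 in green, and Thbs1 by -0.073 in red and 0.82 in green, so the Thbs1 change lay almost wholly in the reference channel, and it was -0.42 with median centring. Furin, the precursor protease, had 1.98 and 1.93 in DAPT spheres, against 2.80 and 2.81 in vehicle spheres, and fell by 0.85 ± 0.19 (limma adjusted p = 0.0206).

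The genes of that list called higher encode integrin subunits. Itgb6, whose αvβ6 integrin releases Tgfb1 from its propeptide in epithelia, had ratios of 4.83 and 4.50 in DAPT spheres, against 3.59 and 3.70 in vehicle spheres, and rose by 1.02 ± 0.20 (limma adjusted p = 0.0118). Itgb1, the common β1 subunit, rose by 0.98 ± 0.25 (limma adjusted p = 0.0374). Both rises depend on processing: with scale normalization between arrays they were 0.11 for Itgb6 and 0.51 for Itgb1, and neither passed. With the mean of a gene's kept probes in place of the brightest they were 0.54 and 0.63, and again neither passed.

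Among 20 tested genes of 21 in the list of receptor partners, Smads and feedback regulators, 2 were called lower and 0 higher, with a median change of -0.26. These were Pmepa1, a TGF-beta-induced inhibitor of Smad signalling, which fell by 0.97 ± 0.23 (limma adjusted p = 0.0269), and Vasn, a ligand trap, which fell by 0.82 ± 0.22 (limma adjusted p = 0.0428). The Smad genes did not pass. Smad2 stood at 0.72 ± 0.21 (limma adjusted p = 0.0650), Smad3 at -0.63 ± 0.20 (limma adjusted p = 0.0773), the common partner Smad4 at -0.27 ± 0.22 and the inhibitory Smad7 at -0.27 ± 0.21. Smad3 and Smad4 changed sign from the scanner's processed signals, to 0.10 and 0.12.

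In the list of genes that TGF-beta is known to induce in other cells, 12 of 13 were tested, 6 were called lower and 1 higher, with a median change of -0.86. Timp1, a metalloproteinase inhibitor, fell by 2.28 ± 0.21, fibronectin (Fn1) fell by 2.20 ± 0.20 and the collagen gene Col1a1 fell by 1.58 ± 0.22. The cell cycle inhibitor Cdkn2b fell by 1.08 ± 0.20 and the matricellular gene Ccn2 fell by 1.04 ± 0.19. In these genes the red difference ran from -2.14 (Fn1) to -1.09 (Ccn2). Tgfbi did not pass, at -0.67 ± 0.21 (limma adjusted p = 0.0705). Igfbp3, a binding protein of insulin-like growth factors, rose by 3.18 ± 0.20 (limma adjusted p = 1.08e-05). The lists were chosen with earlier results known, and the counts are descriptions.

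**Figure D5:**
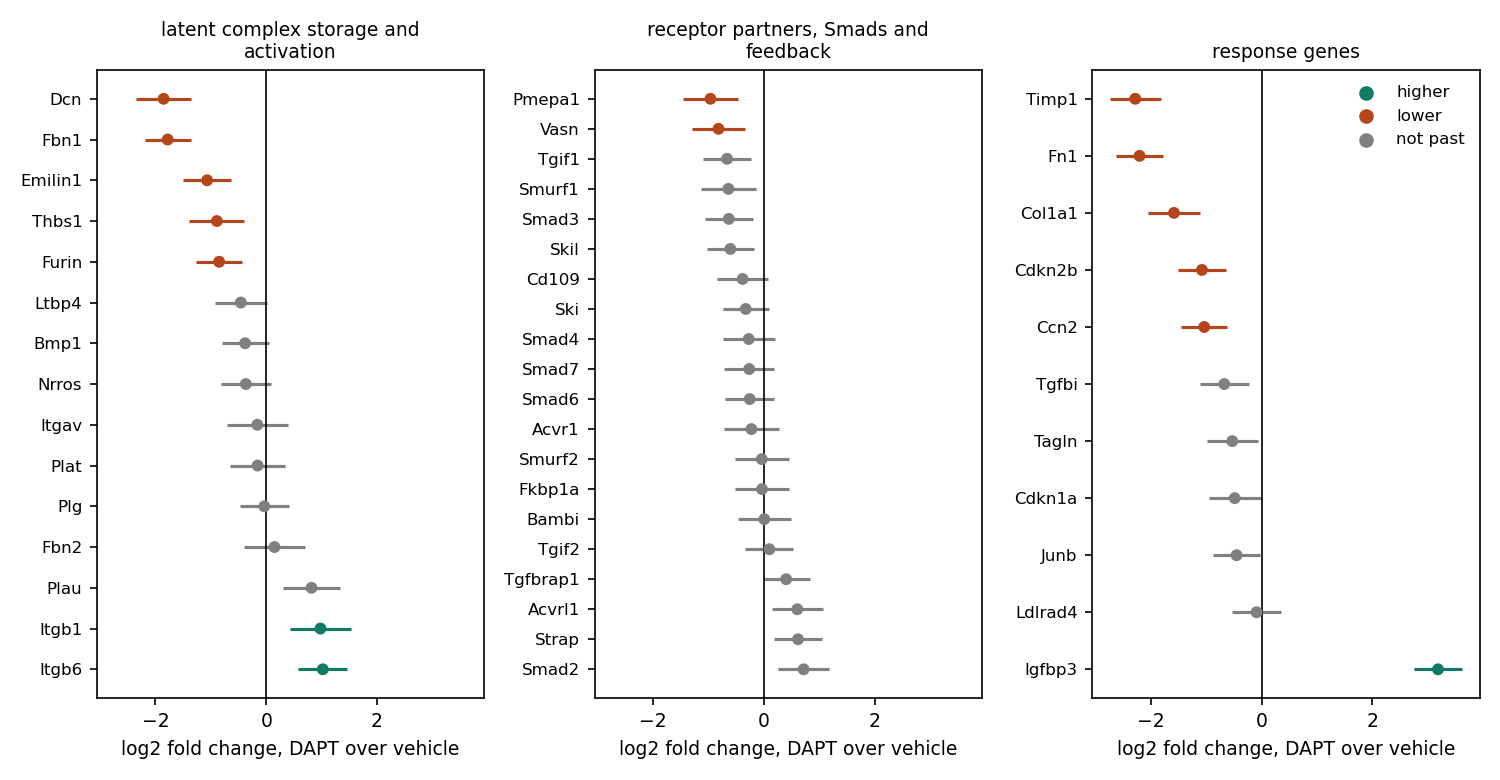
Change of the tested pathway genes reported here (horizontal axis, log2 fold change of DAPT over vehicle, with 95% confidence intervals) in 3 lists, coloured by call. Lower calls outnumber higher ones among the response genes, while 18 of 20 genes in the middle list did not pass.

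Of the marker lists of other cell types, the fibroblast list held most of the calls. Of 9 fibroblast markers, all tested, 6 were called lower, against 3.93% of all genes, and the list had a median change of -1.44. Among the 6 were Col1a1, Col1a2 (-1.85 ± 0.20) and Col3a1 (-1.44 ± 0.23), and Col1a1 and Dcn also stand in the pathway lists. The 3 not called were Lum (0.16), Pdgfra (-0.40, with red higher by 0.61) and Fap (-0.29). The summed red signal of fibroblast markers was 8287 and 9542 in DAPT spheres, against 19677 and 24521 in vehicle spheres. The groups were well apart in this sum, in which bright genes weigh most. Mean log2 red in vehicle spheres was 13.43 for Col1a2 and 12.25 for Col1a1, against 7.53 for Lum. Fewer cells of a type and less RNA per cell cannot be told apart in such bulk samples, and the part of these markers in the values of Tgfb1, the binding proteins, Fbn1 and the matrix genes was not tested. Of 6 smooth muscle markers 1 was called lower, Myh11 (-1.16 ± 0.22), with Acta2 at -0.037 and Cnn1 at 0.29. Their summed red signal was 80512 and 91262 in DAPT spheres, against 79214 and 110318 in vehicle spheres. Of 7 leukocyte markers 6 were tested and 0 called, among them Ptprc at 0.036 and Adgre1 at -0.31, with sums of 5537 and 6324 in DAPT spheres, against 5498 and 6356 in vehicle spheres. The basal keratin Krt5 stood above the reference in both groups, at 4.67 and 5.17 in DAPT spheres against 4.67 and 4.63 in vehicle spheres. So did the luminal keratin Krt19, at 4.47 and 4.61 in DAPT spheres against 5.67 and 5.65 in vehicle spheres. No sorted luminal cells were on the arrays, so Krt5 standing above the reference does not by itself tell basal from luminal cells. The summed red signal of the basal markers was 147716 and 141096 in DAPT spheres, against 241736 and 140748 in vehicle spheres, with vehicle 1 apart from the other 3 arrays. Of 7 basal markers 1 was called lower, Krt15 (-1.08 ± 0.20), and of 4 tested luminal markers 1, Krt19 (-1.11 ± 0.19). The median change was 0.27 over the 7 basal and -0.33 over the 4 luminal markers. Further basal markers, none of them called, were Trp63 at 0.80, Col17a1 at 0.73, Itgb4 at 0.50 and Itga6 at -0.28. Krt15 differed by -3.50 in red and also by -2.42 in green, the reference channel, and the cause was not tested. Krt14 stood at 0.041, Krt8 at -0.36 and Krt18 at -0.099, while the prostate luminal gene Pbsn was not well above background.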

How the data were processed

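Per the file headers, the deposited scanner files, 1 per array, come from Agilent Feature Extraction 10.7.3.1 and hold red and green median spot and local background intensity, not normalized, and processed signals. Red is the sphere sample and green the reference, per the labels. The log10 ratio deposited in these files served only to find the direction of the authors' value table, whose deposited log2 values correlated at 0.869 to 0.902 with it and at 0.9996 to 0.9998 with the ratios computed here; the column medians were -0.015 and -0.011 for DAPT, 0.00072 and -0.011 for vehicle. The sources used here do not give how the authors centred and normalized that table.

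Intensities were background-corrected with limma 3.58.1 (normexp, offset 50) in R 4.3.3, after leaving out 13 spots of the DAPT 2 array whose local background exceeded 5 times the array's median, and normalized by loess within arrays. Spots of a probe were averaged, and 24375 of 41174 probes were named through RefSeq (GRCm38.p6). A probe was kept if over 50% of its spots passed the scanner's background test in red on the 2 arrays of DAPT or those of vehicle, and a gene was read from its brightest kept probe. Groups came from the sample titles and were compared with lmFit and eBayes, two-sided, with 2 residual degrees of freedom per gene. To these eBayes added 10.28 prior degrees of freedom from all genes, so each SE rests largely on the variance of all genes. Dimmer probes were tested in a fit of every probe. Single channels were read after loess and Aquantile. The number of arrays limits the precision. Alternatives covered signals, normalization, filters, probes, marked spots, arrays and the replicate number. The correlation of deviations of same-numbered samples was 0.09 and the labels tie no numbers, so these were not used as pairs.

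Members, lists and tests were chosen with earlier results of these data known. Named are all members, called genes of the pathway lists, pathway genes of set interest (Furin, Itgb6, Smad2, Smad3, Smad4, Smad7 and Tgfbi) and the first 3 genes of each marker list (Cd68 had no named probe). Some marker genes below background were named as well, as were further uncalled fibroblast, basal and endothelial markers. Some listed genes enter the counts but are not reported here.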

Additional observations from a re-analysis of the deposited data

How the results depend on the processing

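The count of members called lower (2) was 0 from processed signals, 1 with median centring, 0 in the sample channel alone, 0 with marked spots left out, 0 with the debris spots kept, 4 with the replicate number as a block and 4 with the mean of a gene's kept probes (added after seeing the data), and 2 to 3 when leaving out 1 array. Over all genes, 843 lower and 622 higher became 338 and 290 from processed signals, 528 and 1265 with median centring, 1 and 0 from sample signals alone, 73 and 173 without marked spots, 66 and 3 with debris spots, and 380 were higher with scale normalization; leaving out 1 array gave 616 to 1006 lower and 433 to 805 higher. In the sample channel 2639 genes and 0 members had an unadjusted p below 0.05. Of the calls 42.5% were higher, against 70.6% with median centring, which moved the median of all genes to 0.11, and 27.5% with scale normalization; the member median minus that of all genes was -0.57, and -0.42 with median centring. Pathway genes, 13 lower and 3 higher, were 7 and 1 from processed signals, 7 lower with median centring, 1 higher with scale normalization, 0 and 0 in the sample channel and without marked spots, 2 and 0 with debris spots, 5 higher with the replicate block, 1 higher with the mean of probes, and 10 to 13 lower and 2 to 5 higher without 1 array (5 without vehicle 1).

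Tgfb1 lost its call at -0.59 from processed signals, -0.60 with median centring, -0.26 in the sample channel, -1.02 with debris spots (limma adjusted p = 0.178) and without vehicle 1 (range without 1 array -1.26 to -0.78). Ltbp2 lost it at -0.77 from processed signals, -0.64 in the sample channel and -1.19 with debris spots. Ltbp1 passed at -0.75 with the filter on all 4 arrays and with the replicate block (limma adjusted p = 0.0470 and 0.0368), at -1.09 with the mean of probes, and without DAPT 2 or vehicle 2 (-0.89 to -0.60 without 1 array). Ltbp3 passed at -0.71 with the block, at -0.98 with the mean of probes and without vehicle 1 (-0.87 to -0.56), and was 0.062 in the sample channel. Tgfb3 was 0.037 after centring on the median and 0.090 in red alone, and -0.73 to -0.10 without 1 array. Tgfbr2 was 0.20 and 0.53 there, and -0.60 to 0.10 without 1 array. Tgfbr3, at 0.0014, was -0.0062 with debris spots and -0.11 to 0.12 without 1 array. The causes were not tested.

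Of called pathway genes, Furin, Itgb1, Pmepa1 and Vasn lost the call without DAPT 2, Itgb1 and Pmepa1 without vehicle 1, Thbs1 without DAPT 1 or vehicle 2 and Vasn without vehicle 2; Smad2 gained it without vehicle 1 and Tgfbi without vehicle 2. Signs changed for Smad3 (0.10) and Smad4 (0.12) from processed signals, Smad4 (0.14), Krt8 (0.12), Krt18 (0.39) and Acta2 (0.42) with median centring, Krt18 (0.016) and Acta2 (0.13) from processed signals, Krt5 (-0.78) and Krt14 (-0.88) with scale normalization, Krt5 (-0.35) and Krt18 (0.082) in the sample channel, Krt14 (-0.034) with debris spots, and without 1 array for Krt14 (-0.28 to 0.36), Krt18 (-0.29 to 0.089), Acta2 (-0.20 to 0.13), Ptprc (-0.28 to 0.36) and Adgre1 (-0.81 to 0.19). A slide or scan block was not run, with 1 slide and 1 scan. A fit without 1 array leaves a group with a lone array, which is assumed to vary like the other group.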
